A study of Mus musculus with 16 samples.

Results

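The genes of cytosolic nucleic acid sensing were followed in KPC1199 cells, a mouse pancreatic ductal adenocarcinoma line from the KPC model (whose alleles include Pdx-cre and Trp53 R172H), with and without a guide against Sin3b. The set was chosen by name and comprised 8 genes: Ddx58 (ENSMUSG00000040296), Ifih1 (ENSMUSG00000026896), Dhx58 (ENSMUSG00000017830), Mavs (ENSMUSG00000037523), Tlr3 (ENSMUSG00000031639), Eif2ak2 (ENSMUSG00000024079), Tbk1 (ENSMUSG00000020115) and Ikbke (ENSMUSG00000042349). Each symbol had 1 row in both deposited tables, which hold 55414 and 56980 genes with an Ensembl identifier, and all 8 passed the filter on low counts in every fit. RNA-seq was available for 16 libraries. In the untreated experiment, 2 libraries carried the control guide (sgCtrL) and 2 the Sin3b guide (Sin3Bsg1). In the IFNγ experiment, each guide had 3 libraries without IFNγ and 3 after 10 ng/ml IFNγ for 24 h. All of these cells carried Cas9 and were puromycin-selected after lentiviral transduction, the Sin3b group rests on 1 guide, and whether a line is a clone or a pool is not given in the sources used here.

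Double-stranded RNA in the cytosol is bound by the helicases RIG-I (Ddx58) and MDA5 (Ifih1), while LGP2 (Dhx58) is a related helicase without the signalling domains that modulates the others. RIG-I and MDA5 signal through MAVS on mitochondria, and the kinases TBK1 and IKKε (Ikbke) then phosphorylate the transcription factors IRF3 and IRF7, which switch on type I interferon genes. TLR3 senses double-stranded RNA in endosomes and PKR (Eif2ak2) slows translation when it binds such RNA. Several of these genes are themselves interferon-stimulated: IFNγ signalling acts on GAS elements, and STAT2 and IRF proteins take part in binding the interferon-stimulated response element (ISRE).

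The start sites of the members were therefore searched for the cores of these elements in RefSeq promoter windows (build GRCm38.p6, 250 bases before to 50 bases after the start), which were held for 7 of the 8 members. No window was held for Dhx58, so it was not searched. The ISRE core was taken as GAAA, any 2 bases and GAAA, on either strand. It was found in 3 member windows, those of Ddx58, Ifih1 and Eif2ak2, and in 3.44% of all 32851 windows. The stretches that hold it are shown because these genes are compared below by the size of their IFNγ response, each in the direction of its gene with the core in capitals:
Ddx58, chr4:40239804-40239833, minus strand: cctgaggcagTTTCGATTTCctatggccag
Ifih1, chr2:62646206-62646235, minus strand: gagaagagaatcGAAACAGAAAccgatctg
Eif2ak2, chr17:78882535-78882564, minus strand: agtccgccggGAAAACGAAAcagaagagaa
Counting the first transcribed base as 1, the core began at base 3 of Ddx58, where it lay on the opposite strand, at base 33 of Ifih1 and at base 19 of Eif2ak2. The GAS core TTCNNNGAA, which reads the same on both strands, was found in 1 member window, 178 bases before the start of Eif2ak2, and in 8.30% of all windows:
Eif2ak2, chr17:78882731-78882760, minus strand: ctgcagagctTTCCCAGAAtggaagccagg
A looser form of the ISRE core, AAANNGAAA on either strand, was added after the windows had been read. It is part of every longer core above, was found in 10.6% of all windows, and added Tlr3 (59 bases before the start, opposite strand) and Ikbke (132 bases before the start, opposite strand):
Tlr3, chr8:45410420-45410449, minus strand: agtgaatggcTTTCACTTTgtttagacaca
Ikbke, chr1:131279676-131279705, minus strand: cagaatcctcTTTCCCTTTactgaaggggg
The windows of Mavs and Tbk1 held none of the 3 patterns. These matches describe letters in a window of 300 bases and were not tested as binding sites.

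Sin3b, the targeted gene, was measured first. Its level was 88.6 and 83.4 CPM (counts scaled to the size of the library) in the sgCtrL libraries of the untreated experiment against 36.5 and 34.1 in Sin3Bsg1, and its log2 fold change was -1.28, -1.24 and -1.22 in the untreated experiment, without IFNγ and with IFNγ. The depth of a library was 29683181 to 32311721 estimated counts for untreated cells and 18128055 to 27056903 where IFNγ was tested. The library sgCtrL with IFNγ replicate 1 stood apart: the chi-square between its counts and those of its replicates averaged 23.2 and 19.5 over genes, and all other pairs within a group gave 2.45 to 9.63. All 7 epithelial or ductal markers (Krt8, Krt18, Krt19, Krt7, Epcam, Cdh1, Sox9) exceeded 1 TPM (a level per transcript length, scaled to the library) in every library. They summed to 5499 to 5516 TPM in untreated sgCtrL and to 7267 to 7367 TPM in untreated Sin3Bsg1. In the IFNγ experiment these sums were 3886 to 3965 against 4208 to 4311 TPM without IFNγ. With it they were 3896 to 4626 against 5161 to 5353 TPM. Of the 5 macrophage markers, which summed to 9.57 to 14.6 TPM over all libraries, Cd68 was the 1 gene above 1 TPM in every library, and Adgre1 was at 0 in all of them. The leukocyte marker Ptprc did not exceed 0.0534 TPM and the 4 T cell markers summed to at most 0.0477 TPM. The 5 fibroblast markers, which tumour cells with mesenchymal features can also express, summed to 31.0 and 31.2 TPM in untreated sgCtrL but 9.48 and 10.6 TPM in untreated Sin3Bsg1. In the IFNγ experiment they summed to 85.3 to 89.3 against 74.8 to 79.5 TPM without IFNγ and 57.1 to 58.4 against 49.1 to 55.2 TPM with it. The part of these differences in epithelial and fibroblast marker sums in the results on genotype was not tested.

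Per transcript length, Tbk1, Eif2ak2 and Mavs were the most abundant members without IFNγ and the helicase genes Dhx58 and Ifih1 the least, in both genotypes. In sgCtrL cells without IFNγ the order was Tbk1 (36.1 ± 2.72 TPM, SD, n = 3), Eif2ak2 (28.9 ± 1.11), Mavs (25.5 ± 0.801), Ddx58 (9.75 ± 0.993), Ikbke (9.45 ± 0.499), Tlr3 (7.14 ± 0.603), Dhx58 (2.50 ± 0.688) and Ifih1 (2.10 ± 0.0302). The ranges of Ddx58 and Ikbke overlapped, as did those of Dhx58 and Ifih1, and the other neighbours in this order did not. After IFNγ the order in sgCtrL became Eif2ak2 (67.4 ± 7.2 TPM), Tbk1 (41.7 ± 2.99), Ddx58 (36.4 ± 0.695), Tlr3 (25.6 ± 2.91), Mavs (23.7 ± 1.11), Dhx58 (15.3 ± 0.905), Ifih1 (13.9 ± 0.900) and Ikbke (7.88 ± 0.748). Ranges overlapped between Tlr3 and Mavs and between Dhx58 and Ifih1. Ikbke thus moved from the fifth place to the last while Ddx58 passed Mavs. The same order was seen in Sin3Bsg1 with IFNγ, from Eif2ak2 (69.7 ± 3.69 TPM) to Ikbke (8.69 ± 0.217), and there ranges overlapped between Tbk1 and Ddx58 and between Dhx58 and Ifih1, while those of Tlr3 and Mavs did not.

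**Figure D1:**
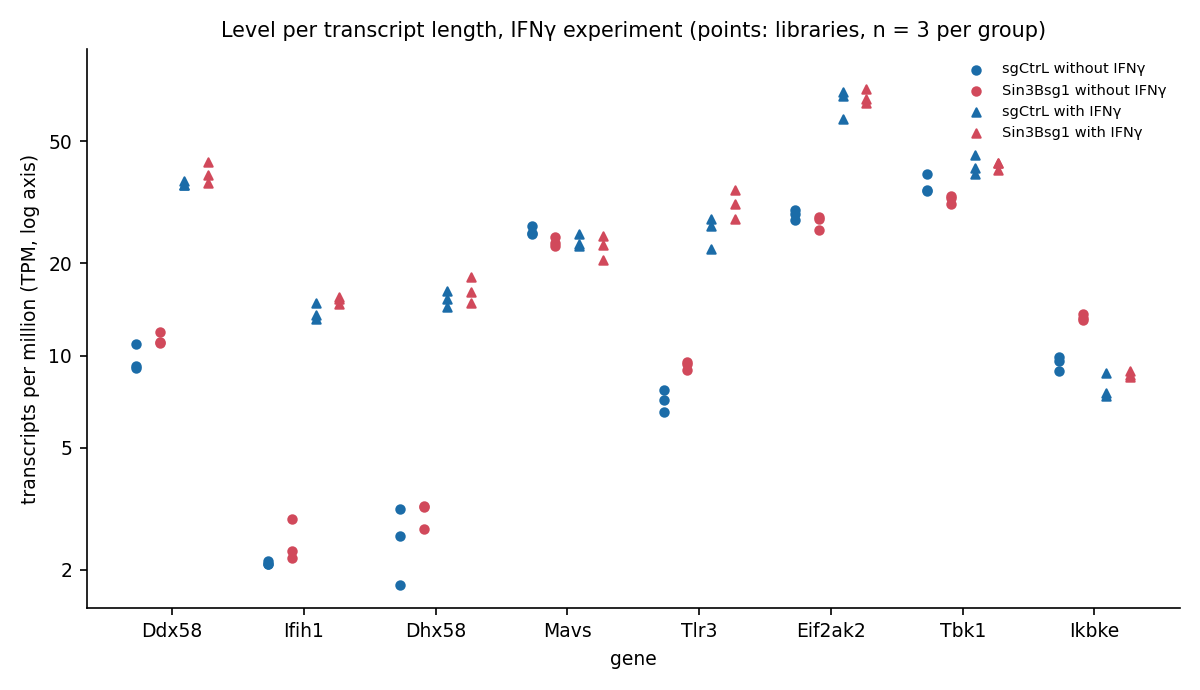
Level of each gene in TPM (log axis) in the 12 libraries of the IFNγ experiment, with circles for libraries without and triangles for libraries with IFNγ, blue for sgCtrL and red for Sin3Bsg1. Ifih1 and Dhx58 lay near 2 to 3 TPM without IFNγ and at 13.2 to 18.1 TPM with it, while the points of Mavs stayed between 20.4 and 26.4 TPM in all 4 groups.

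The first comparison asked whether loss of Sin3b changed the set in cells that had seen no cytokine. Of the 8 members, Tlr3 was the one that passed the test in the untreated experiment (edgeR quasi-likelihood test, Benjamini-Hochberg adjusted over all genes tested). In this comparison 31.2% of the 14589 genes tested passed in either direction and 15.1% passed as higher in Sin3Bsg1. A count of 1 of 8 does not set the members apart from the share of all genes that passed as higher. Tlr3, the endosomal sensor of double-stranded RNA, was at 11.6 and 11.8 CPM in sgCtrL and at 15.7 and 14.7 CPM in Sin3Bsg1, and the groups did not overlap. Its log2 fold change was 0.38 ± 0.09 (SE; 95% interval 0.19 to 0.58; adjusted p = 0.0046), or 1.30-fold. The median log2 fold change of the members was -0.02 beside 0.00241 over all genes tested.

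Among the RIG-I-like helicases of the untreated experiment, Ifih1 was at 7.09 and 6.40 CPM in sgCtrL and at 8.31 and 8.23 CPM in Sin3Bsg1. The groups did not overlap, yet the log2 fold change of 0.29 ± 0.13 (SE) missed the threshold (adjusted p = 0.0917). Ddx58, the RIG-I gene, was at 14.4 and 15.2 CPM in sgCtrL and at 14.9 and 13.2 CPM in Sin3Bsg1, which overlap. Dhx58 was the lowest member at 68 to 108 counts per library, with 3.63 and 2.31 CPM in sgCtrL against 3.11 and 2.85 CPM in Sin3Bsg1. Its 95% interval of -0.49 to 0.50 on the log2 scale leaves room for a change of either sign. The adaptor Mavs had 46.7 and 45.4 CPM in sgCtrL and 48.0 and 50.8 CPM in Sin3Bsg1 (log2 fold change 0.10, adjusted p = 0.15). Eif2ak2, the PKR gene, had 66.2 and 69.3 CPM against 65.5 and 65.3 CPM (log2 fold change -0.05, adjusted p = 0.408). For the kinases, Tbk1 gave 39.7 and 41.5 CPM against 38.4 and 36.2 CPM (-0.12, adjusted p = 0.116) and Ikbke gave 20.2 and 21.9 CPM against 19.5 and 21.6 CPM (-0.04, adjusted p = 0.797). The groups of Mavs, Eif2ak2 and Tbk1 did not overlap, whereas those of Ikbke did. With 2 or 3 libraries per group, separation alone does not show a difference, here or below. The share of all genes that separate in this way was not counted.

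**Figure D2:**
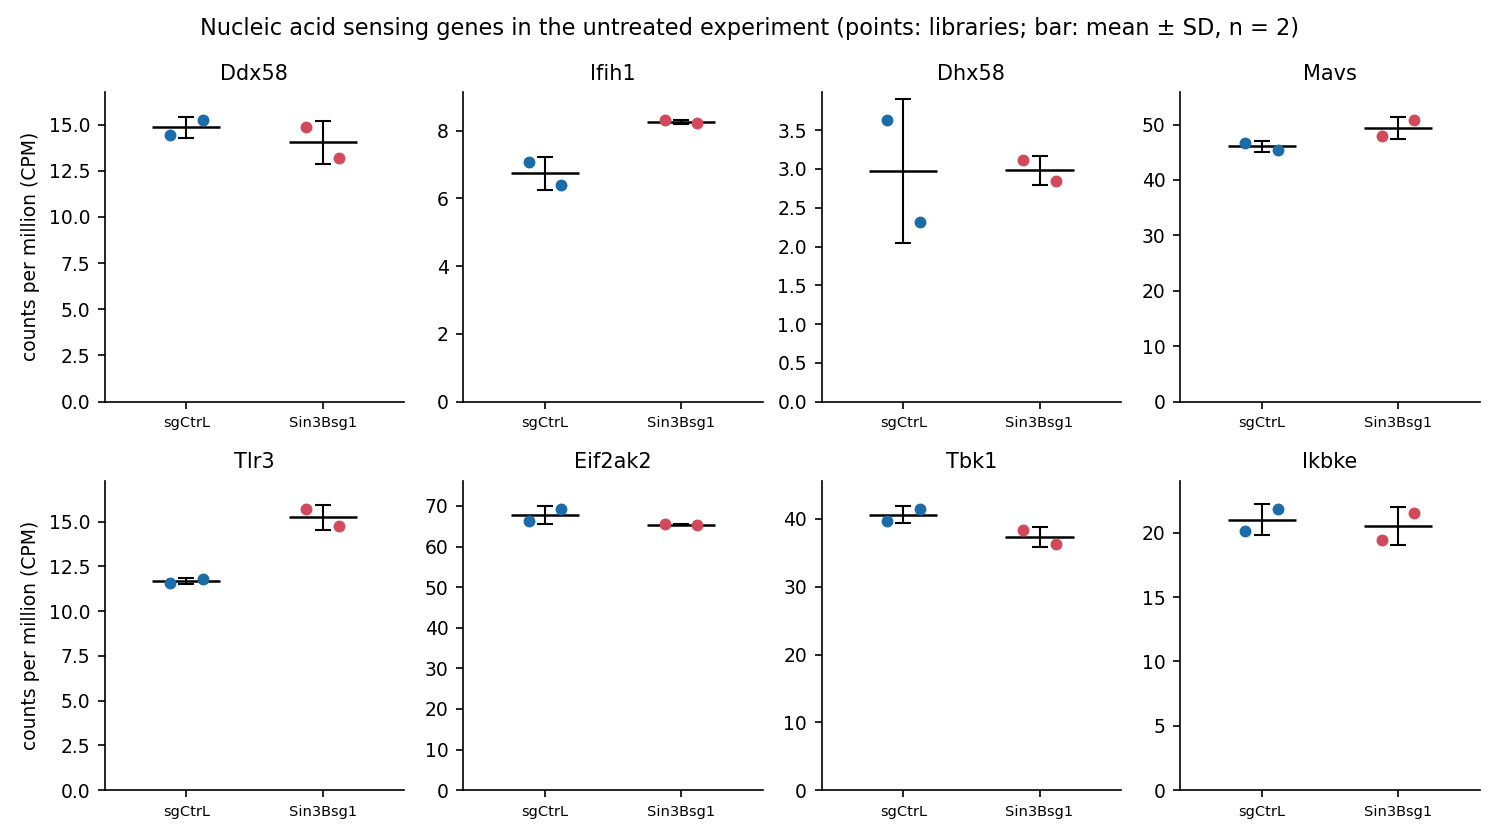
CPM of each gene in the untreated experiment, with 1 point per library (n = 2 per group), a bar at the group mean and whiskers of ± 1 SD. Tlr3 rose from 11.6 and 11.8 CPM in sgCtrL to 15.7 and 14.7 CPM in Sin3Bsg1, and Ddx58, Dhx58 and Ikbke overlapped between the guides.

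The same question was asked of the libraries without IFNγ in the second experiment, where Tlr3 passed again and Ikbke joined it. These were 2 of 8 members, both higher in Sin3Bsg1, where 17.2% of the 14913 genes tested passed in either direction and 7.89% as higher. Tlr3 was at 14.3, 15.7 and 13.1 CPM in sgCtrL and at 17.9, 18.6 and 18.8 CPM in Sin3Bsg1. All Sin3Bsg1 libraries lay above all sgCtrL libraries, with a log2 fold change of 0.35 ± 0.09 (SE; 95% interval 0.15 to 0.55; adjusted p = 0.0157), or 1.28-fold. This call depended on single libraries: the adjusted p became 0.0530 without sgCtrL replicate 1, 0.0829 without sgCtrL replicate 3 and 0.0516 without Sin3Bsg1 replicate 3, with log2 fold changes of 0.35, 0.29 and 0.34. Ikbke, which encodes IKKε, was at 14.1, 13.4 and 14.6 CPM in sgCtrL and at 19.3, 19.4 and 19.8 CPM in Sin3Bsg1. The gap between these groups exceeded the spread within either, and the log2 fold change was 0.48 ± 0.08 (SE; 95% interval 0.31 to 0.65; adjusted p = 0.000529), or 1.39-fold. It passed under all 12 alternatives tried, with adjusted p between 2.66e-05 and 0.0051.

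The remaining members did not pass without IFNγ. Ddx58 was at 19.1, 16.2 and 16.4 CPM in sgCtrL and at 19.2, 20.8 and 19.2 CPM in Sin3Bsg1, a log2 fold change of 0.20 (adjusted p = 0.0797) that passed only when sgCtrL replicate 1, the highest control, was left out (0.28, adjusted p = 0.0240). Ifih1 was at 5.28, 5.26 and 5.19 CPM in sgCtrL and at 5.67, 5.39 and 7.18 CPM in Sin3Bsg1, where replicate 3 was the high one (0.21, adjusted p = 0.230). Dhx58 ranged from 1.94 to 3.51 CPM in sgCtrL and from 2.96 to 3.50 CPM in Sin3Bsg1. Tbk1 pointed down, from 47.0, 48.6 and 54.1 CPM to 45.4, 44.4 and 42.3 CPM, with no overlap, and its log2 fold change of -0.18 had an adjusted p of 0.0673, which became 0.0284 when only the 6 libraries compared were fitted. Mavs was at 34.9 to 36.5 CPM in sgCtrL and at 31.2 to 33.7 CPM in Sin3Bsg1 (-0.13, adjusted p = 0.157). Eif2ak2 was at 55.2 to 58.8 CPM against 49.9 to 54.8 CPM (-0.10, adjusted p = 0.391). The median of the members was 0.21 beside -0.00898 over all genes tested.

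With IFNγ present, Tlr3 was the single member that differed by genotype. Here 16.5% of the 14913 genes passed in either direction and 8.62% as higher in Sin3Bsg1. Tlr3 was at 59.0, 48.2 and 55.8 CPM in sgCtrL and at 70.6, 67.0 and 60.9 CPM in Sin3Bsg1, and the groups did not overlap. The log2 fold change was 0.29 ± 0.08 (SE; 95% interval 0.12 to 0.45; adjusted p = 0.0172), or 1.22-fold. Without sgCtrL with IFNγ replicate 1, the library that stood apart, it was 0.36 (adjusted p = 0.0021). The call was lost without sgCtrL replicate 2 (0.21, adjusted p = 0.0766), without Sin3Bsg1 replicate 1 (0.23, adjusted p = 0.0836), without Sin3Bsg1 replicate 2 (0.28, adjusted p = 0.0609) and when only these 6 libraries were fitted (0.28, adjusted p = 0.0682). Ikbke was 0.13 higher on the log2 scale (95% interval -0.04 to 0.31; adjusted p = 0.316). The other members had log2 fold changes from -0.06 for Mavs to 0.13 for Ifih1, and their groups overlapped. Tbk1 was at 60.8 ± 4.05 CPM in sgCtrL and 60.7 ± 1.69 CPM in Sin3Bsg1 (SD, n = 3; log2 fold change -0.00105, 95% interval -0.13 to 0.13). The median of the members was 0.10 beside 0.00365 over all genes tested.

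**Figure D3:**
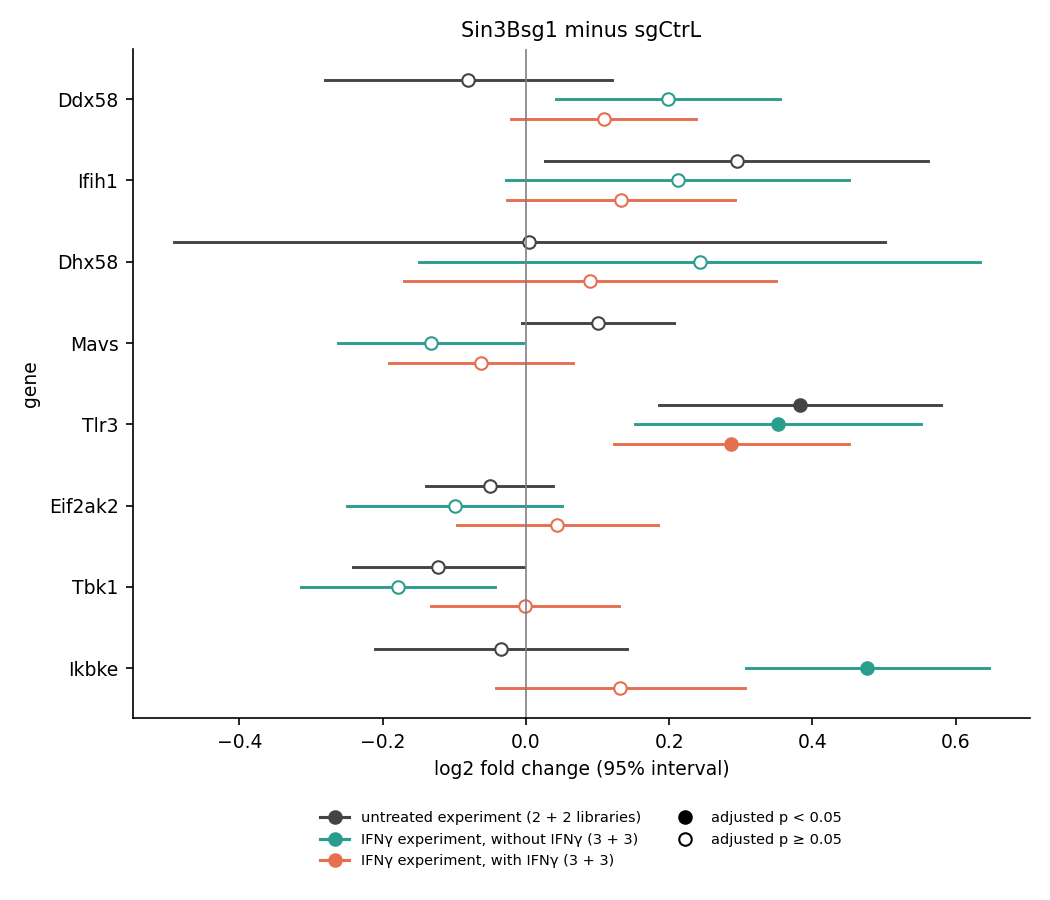
Log2 fold change of each gene between Sin3Bsg1 and sgCtrL with its 95% interval, in the untreated experiment (dark grey) and in the IFNγ experiment without (green) and with IFNγ (orange), filled where the adjusted p was under 0.05. Tlr3 is filled and to the right of 0 in all 3 comparisons (0.38, 0.35 and 0.29), and Ikbke is filled only without IFNγ (0.48).

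The genotype difference was then compared between the experiments directly, by fitting the 10 libraries without IFNγ together. In that fit 13.6% of the 15264 genes tested passed in either direction, and 1 of 8 members did. Ikbke differed between untreated cells and the cells without IFNγ by -0.52 ± 0.11 on the log2 scale (SE; 95% interval -0.75 to -0.29; adjusted p = 0.0025): the sgCtrL mean was 21.0 CPM in the untreated experiment and 14.0 CPM in the second experiment, while the Sin3Bsg1 mean was 20.5 and 19.5 CPM. The CPM of the experiments come from separate tables and are set side by side for orientation only. Tlr3 gave a difference of 0.02 (95% interval -0.24 to 0.28; adjusted p = 0.946). Mavs pointed up in one experiment and down in the other, a difference of 0.22 that missed the threshold (adjusted p = 0.0590) and passed without Sin3Bsg1 without IFNγ replicate 1 (0.26, adjusted p = 0.0436).

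IFNγ raised 6 of the 8 members in sgCtrL cells: the 3 helicases, Tlr3, Eif2ak2 and Tbk1. Over all 14913 genes tested, 30.2% passed in either direction and 15.7% as higher, and the median log2 fold change was 1.61 over the members beside -0.0006 over all genes. Ifih1 and Dhx58 rose most. Ifih1 went from 5.28, 5.26 and 5.19 CPM to 39.0, 35.3 and 35.3 CPM, a log2 fold change of 2.80 ± 0.09 (SE; adjusted p = 1.16e-12) or 6.95-fold. Dhx58 went from 1.94, 3.51 and 2.83 CPM to 18.8, 18.1 and 16.6 CPM, a log2 fold change of 2.67 ± 0.15 (adjusted p = 1.46e-09) or 6.34-fold. Ddx58 went from 19.1, 16.2 and 16.4 CPM to 69.1, 68.1 and 66.7 CPM, a log2 fold change of 1.98 ± 0.07 (adjusted p = 1.73e-12) or 3.95-fold. The treated libraries were far above the untreated ones for all 3 genes, and the 95% intervals of Ifih1 (2.60 to 2.9992) and Dhx58 (2.34 to 2.99) overlapped each other but not that of Ddx58 (1.84 to 2.13).

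The other sensors, Tlr3 and Eif2ak2, also rose. Tlr3 went from 14.3, 15.7 and 13.1 CPM to 59.0, 48.2 and 55.8 CPM in sgCtrL, a log2 fold change of 1.91 ± 0.09 (SE; 95% interval 1.72 to 2.10; adjusted p = 7.28e-11) or 3.76-fold, and its interval overlapped that of Ddx58. Eif2ak2, the most abundant member after treatment, went from 56.5, 55.2 and 58.8 CPM to 122, 149 and 149 CPM, a log2 fold change of 1.30 ± 0.07 (adjusted p = 4.54e-10) or 2.47-fold. Its low treated value came from replicate 1, the library that stood apart, and without it the log2 fold change was 1.38. Of the kinases, Tbk1 rose from 47.0, 48.6 and 54.1 CPM to 56.9, 60.4 and 65.0 CPM (0.29 ± 0.06, adjusted p = 0.0026), with no overlap between the groups. Ikbke was at 14.1, 13.4 and 14.6 CPM without and at 11.5, 13.9 and 11.7 CPM with IFNγ, and replicate 2 of the treated group lay within the untreated range. Its log2 fold change of -0.18 did not pass (adjusted p = 0.128), but did without that replicate (-0.28, adjusted p = 0.0186). The adaptor Mavs was at 36.5, 35.2 and 34.9 CPM without and at 36.5, 34.1 and 33.8 CPM with IFNγ, and its 95% interval of -0.16 to 0.10 on the log2 scale bounds the change in either direction.

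In Sin3Bsg1 cells the same 6 members passed as higher after IFNγ, and Ikbke passed as lower. Over all 14913 genes, 28.4% passed in either direction, 16.1% as higher and 12.3% as lower, and the medians were 1.64 over the members and 0.00518 over all genes. Ifih1 rose from 5.67, 5.39 and 7.18 CPM to 38.8, 39.2 and 42.0 CPM (2.72 ± 0.09, SE) and Dhx58 from 3.50, 2.96 and 3.48 CPM to 16.6, 21.2 and 19.2 CPM (2.51 ± 0.15). Ddx58 rose from 19.2, 20.8 and 19.2 CPM to 76.9, 68.6 and 74.3 CPM (1.89 ± 0.07) and Tlr3 from 17.9, 18.6 and 18.8 CPM to 70.6, 67.0 and 60.9 CPM (1.84 ± 0.08). No treated library of these 4 sensors reached down to an untreated one. Eif2ak2 rose from 54.4, 49.9 and 54.8 CPM to 148, 144 and 142 CPM (1.45 ± 0.07) and Tbk1 from 45.4, 44.4 and 42.3 CPM to 59.4, 62.6 and 60.2 CPM (0.46 ± 0.06, adjusted p = 3.15e-05). Ikbke fell from 19.3, 19.4 and 19.8 CPM to 13.5, 13.6 and 13.7 CPM, a log2 fold change of -0.52 ± 0.08 (SE; 95% interval -0.69 to -0.35; adjusted p = 9.94e-05) or 1.43-fold lower. Replicates of Ikbke lay close together in both Sin3Bsg1 groups and the gap between the groups was wide. Mavs was at 31.2 to 33.7 CPM without and 30.9 to 34.9 CPM with IFNγ (log2 fold change 0.04, adjusted p = 0.673). Being bulk measurements, these levels cannot tell a change in the share of cells that express a gene from a change in RNA per cell.

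**Figure D4:**
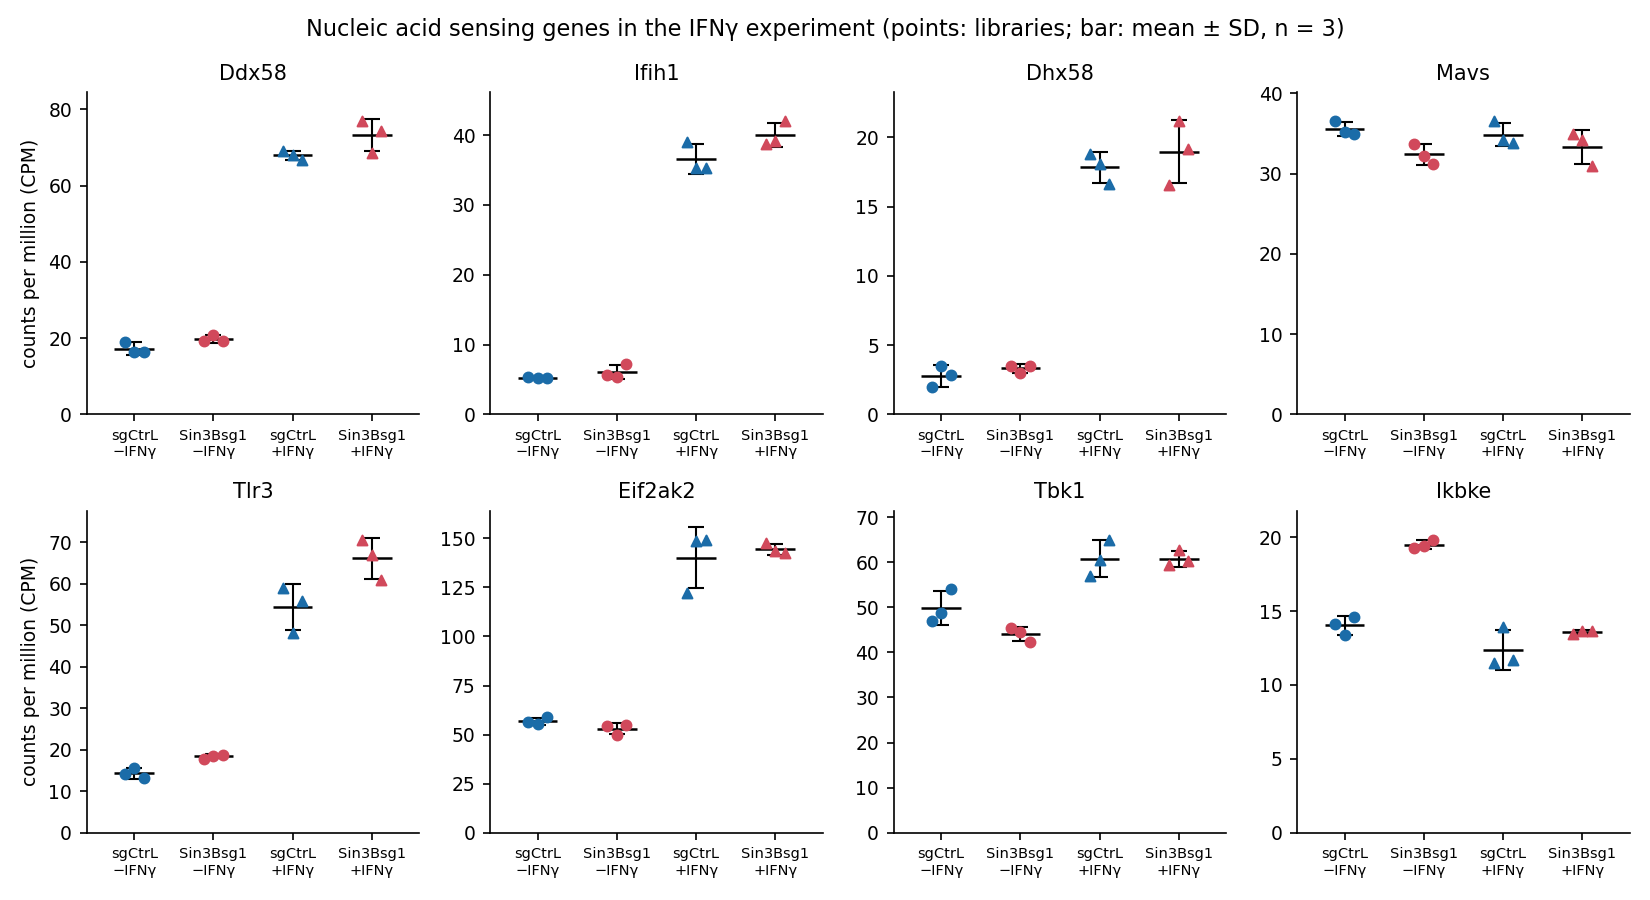
CPM of each gene in the IFNγ experiment, with 1 point per library (n = 3 per group; circles without and triangles with IFNγ), a bar at the group mean and whiskers of ± 1 SD. Ddx58, Ifih1, Dhx58, Tlr3 and Eif2ak2 separate by treatment in both genotypes, Ikbke is at 19.3 to 19.8 CPM in Sin3Bsg1 without IFNγ and at 11.5 to 14.6 CPM in the other 3 groups, and Mavs lies between 30.9 and 36.5 CPM throughout.

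Whether Sin3b loss altered the size of the IFNγ response was tested by the interaction of genotype and treatment. None of the 8 members passed (edgeR quasi-likelihood test), where 0.114% of the 14913 genes, 17 in number, passed in either direction; DESeq2 also called 0 of 8, and 1 member had an unadjusted p under 0.05. That member was Ikbke, whose response was 0.34 lower in Sin3Bsg1 on the log2 scale (log2 difference -0.34 ± 0.11, SE; 95% interval -0.59 to -0.10; adjusted p = 0.676). For the strongly induced sensors the responses were close in the 2 genotypes. The log2 difference was -0.09 for Ddx58 (95% interval -0.29 to 0.11), -0.08 for Ifih1 (-0.37 to 0.21), -0.07 for Tlr3 (-0.32 to 0.19) and 0.14 for Eif2ak2 (-0.06 to 0.35). Dhx58, with the fewest counts, had the widest interval (-0.15; -0.62 to 0.32). Tbk1 gave 0.18 (-0.01 to 0.37) and Mavs 0.07 (-0.11 to 0.25). These intervals leave differences of the sizes they span undecided.

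**Figure D5:**
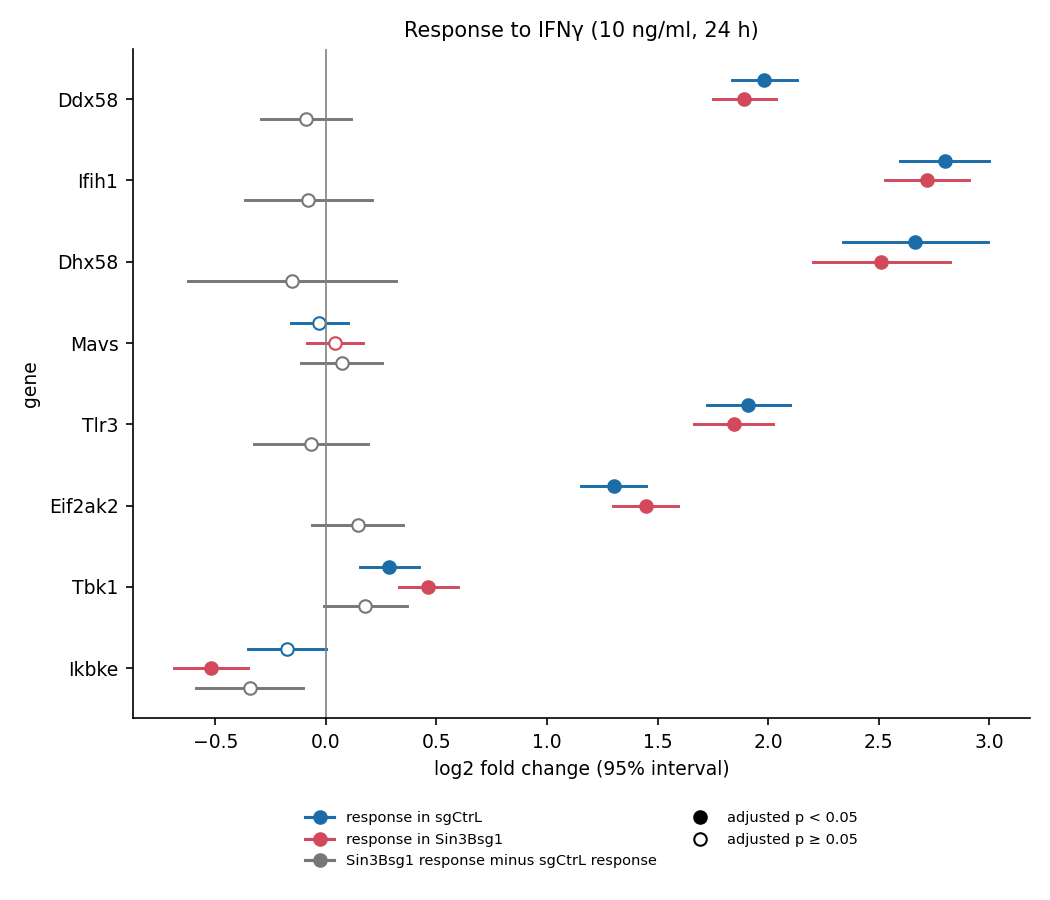
Log2 fold change after 10 ng/ml IFNγ for 24 h with its 95% interval in sgCtrL (blue) and Sin3Bsg1 (red), and the difference of these responses (grey), filled where the adjusted p was under 0.05. The responses of Ifih1 (2.80 and 2.72), Dhx58 (2.67 and 2.51), Ddx58 (1.98 and 1.89) and Tlr3 (1.91 and 1.84) lie near each other in the pairs of points, and no grey point is filled.

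The wider pathway was described by lists of partner genes. Their counts stand beside the shares of all genes that passed in either direction, which were 30.2% and 28.4% after IFNγ in sgCtrL and Sin3Bsg1, and 31.2%, 17.2% and 16.5% by genotype in untreated cells, without and with IFNγ. Of 18 cofactors and regulators of the RIG-I-like receptors, all 18 were tested in the IFNγ experiment; 9 rose after IFNγ in sgCtrL and 7 in Sin3Bsg1, with list medians of 0.23 and 0.15. The ubiquitin-like protein gene Isg15 rose from 0.493 ± 0.135 to 25.5 ± 2.76 CPM in sgCtrL and from 0.525 ± 0.193 to 27.2 ± 2.21 CPM in Sin3Bsg1 (SD, n = 3). Usp18, which removes ISG15 from proteins, had 0 to 3 counts per library without IFNγ and reached 3.87 ± 0.196 CPM in sgCtrL and 4.83 ± 0.835 CPM in Sin3Bsg1. By genotype, 3 of 18 were higher without IFNγ, where 7.89% of all genes were, and 3 were higher and 3 lower with it, where 8.62% of all genes were higher. Tnfaip3, which encodes the ubiquitin-editing enzyme A20, was higher in Sin3Bsg1 by 0.58 without (adjusted p = 0.000388) and 0.41 with IFNγ (adjusted p = 0.0047) on the log2 scale. Trim25, the E3 ligase linked to RIG-I activation, was higher by 0.25 without (adjusted p = 0.0021) and by 0.29 with IFNγ (adjusted p = 0.000563). It was higher by 0.22 in untreated cells (adjusted p = 4.81e-05), where 16 of the 18 were tested, 1 was higher and 3 were lower. The helicase gene Dhx15 was lower there by 0.18 (log2 fold change -0.18). Ddx60, another helicase gene, was higher without IFNγ (1.25, adjusted p = 0.0483) at only 3 to 7 counts per library in sgCtrL and 11 to 17 in Sin3Bsg1, and this call was lost under 7 of 11 alternatives, with adjusted p up to 0.218.

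Among 15 partners of TBK1 and IKKε and downstream transcription factors, 5 rose after IFNγ in sgCtrL, and 5 rose and 1 fell in Sin3Bsg1. Irf7, the factor that amplifies type I interferon, rose by 3.90 ± 0.14 in sgCtrL and by 3.57 ± 0.13 in Sin3Bsg1 (log2 fold change, SE), and Azi2, an adaptor of TBK1, rose by 0.43 and 0.31. Irf3 did not pass, with 19.6 ± 1.25 CPM without and 20.3 ± 2.99 CPM with IFNγ in sgCtrL (log2 fold change 0.05, adjusted p = 0.774). By genotype, 1 was higher and 1 lower both without and with IFNγ. Optn, a ubiquitin-binding partner of TBK1, was higher in Sin3Bsg1 by 0.29 and 0.27 on the log2 scale, and by 0.17 in untreated cells (adjusted p = 0.0297; 0.126 by DESeq2). Ikbkg, which encodes NEMO, had log2 fold changes of -0.34 without and -0.25 with IFNγ. Untreated cells had 1 of the 15 higher and 3 lower, with Tbkbp1, a TBK1-binding adaptor, at 9.41 ± 1.33 CPM in sgCtrL and 4.82 ± 0.651 CPM in Sin3Bsg1 (SD, n = 2; log2 fold change -0.97, adjusted p = 9.55e-05).

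The list of other nucleic acid sensors and antiviral effectors held 21 genes, of which 19 were tested in the IFNγ experiment. There 15 rose and 2 fell after IFNγ in sgCtrL and 16 rose in Sin3Bsg1, with list medians of 1.63 and 1.67. Zbp1, a sensor of Z-form nucleic acid, went from 4 to 9 counts per library to 2549 to 3446 counts in sgCtrL, and from 3 to 9 counts to 2852 to 3045 counts in Sin3Bsg1. Oas2, a 2′-5′ oligoadenylate synthetase gene, rose to 19.5 ± 1.12 CPM from 0 to 9 counts per library in sgCtrL, and Ifit3, an RNA-binding effector gene, rose to 50.1 ± 1.71 CPM from 5 to 15 counts in Sin3Bsg1. Both genes rose in both genotypes. The log2 fold changes in sgCtrL and Sin3Bsg1 were 6.60 and 5.72 for Oas2, and 6.16 and 6.72 for Ifit3. By genotype, 1 was higher and 2 lower both without and with IFNγ, and in untreated cells 3 of 16 were higher and 6 lower. The 3 of 19 genes that passed without and with IFNγ are near the 17.2% and 16.5% of all genes. Sting1, the adaptor of the DNA-sensing route parallel to Mavs, was lower in Sin3Bsg1 in untreated cells, without IFNγ and with IFNγ. It was at 50.2 and 50.97 CPM in untreated sgCtrL and at 26.1 and 24.1 CPM in untreated Sin3Bsg1 (log2 fold change -1.01 ± 0.06, SE; adjusted p = 1.45e-09). In the IFNγ experiment it was at 167, 165 and 168 CPM against 99.3, 111 and 104 CPM without IFNγ (-0.67 ± 0.06) and at 299, 259 and 249 CPM against 193, 182 and 185 CPM with it (-0.53 ± 0.06). Every Sin3Bsg1 library was below every sgCtrL library of the same condition, and IFNγ raised Sting1 in both genotypes, by 0.69 and 0.83. Cgas, the DNA sensor upstream of Sting1, had at most 9 counts in any library. Oasl1, a gene related to the oligoadenylate synthetases, was higher in Sin3Bsg1 by 0.73 in untreated cells.

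Of the other Toll-like receptors and their endosomal partners, 6 of 13 were tested in the IFNγ experiment and 5 in the untreated one. IFNγ raised 4 and lowered 1 in sgCtrL and raised 2 in Sin3Bsg1. Unc93b1, the chaperone that carries TLR3 to endosomes, rose from 34.7 ± 1.53 to 69.8 ± 3.12 CPM in sgCtrL and from 34.8 ± 0.755 to 73.4 ± 4.34 CPM in Sin3Bsg1, and Tlr2, a receptor of bacterial lipoproteins, rose by 0.69 and 1.02 on the log2 scale. By genotype, Cnpy3, a folding factor of Toll-like receptors, was lower in untreated cells (-0.32) and with IFNγ (-0.25), and Tlr4 was lower without IFNγ (-0.18, adjusted p = 0.0403; 0.0621 by DESeq2), 1 gene in each comparison. The nucleic acid sensing Tlr9 had at most 2 counts, and Tlr8 had none, in any library. The other eIF2α kinases couple stresses other than RNA to the same block of translation as Eif2ak2. Of these, Eif2ak3 was higher in Sin3Bsg1 by 0.24 without (adjusted p = 0.0137) and 0.28 with IFNγ (adjusted p = 0.0064, edgeR quasi-likelihood test). It passed under 10 and 12 of 12 alternatives. Eif2ak1 and Eif2ak4 were lower in untreated cells (-0.20 and -0.21). IFNγ raised Eif2ak1 in Sin3Bsg1 by 0.15 (adjusted p = 0.0404, or 0.100 by DESeq2).

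The 9 type I and type III interferon genes searched, which are outputs of the pathway, had few or no counts. Ifnb1, Ifna1, Ifna2, Ifna4, Ifna5, Ifnl2 and Ifnl3 had 0 counts in all 16 libraries, which allows at most 0.0935 to 0.102 CPM in a library of the untreated experiment and 0.111 to 0.165 CPM in one of the IFNγ experiment (3 counts, counting error only). Ifne had at most 4 counts and Ifnk at most 1.

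Over the 12 libraries of the IFNγ experiment, the genes most like each member were found by Pearson correlation of log2 CPM among 10503 genes with a mean of at least 5 CPM. These values are descriptive, since the libraries fall into treatment and genotype groups that all genes share. Ddx58 was followed most closely by Psmb8 (r = 0.998) and Gbp2 (0.998), Ifih1 by Gbp3 (0.999) and Ifi204 (0.999), Dhx58 by Psmb9 (0.992) and Trim21 (0.992), and Tlr3 by Ifi203 (0.996) and Clic4 (0.995). Psmb8 and Psmb9 encode immunoproteasome subunits and Gbp2 and Gbp3 guanylate-binding proteins. Eif2ak2 was followed by Raph1 (0.997) and Stat2 (0.997) and Tbk1 by Casp4 (0.966) and Uimc1 (0.960). Ikbke was closest to Zfp239 (0.970) and Washc2 (0.940), and Mavs to Exoc2 (0.892) and Fgd1 (0.885), the lowest values of the set.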

How the data were processed

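RNA was sequenced from KPC1199 cells in an untreated and an IFNγ experiment, with 1 table each. The authors deposited estimated counts per gene, which need not be whole and are not normalized, with gene lengths and group means; the means were not used. Reads were aligned with HISAT2. The study's methods name mm9 and featureCounts, and the submitters' processing notes name mm39, fastp and StringTie, so no coordinates of theirs are given. Versions, annotation and strand setting are not given in the sources used here. Control columns carry a lacZ guide name and were taken as sgCtrL.

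Counts were rounded, 324 assembled loci without an Ensembl identifier were left out, and edgeR 4.0.16 was run in R 4.3.3 (filterByExpr, TMM, glmQLFit and glmQLFTest, Benjamini-Hochberg adjustment over all genes tested, threshold 0.05), after a test on simulated data. The standard error is the log2 fold change divided by the root of F. The 4 groups of the IFNγ experiment were fitted together. CPM used TMM-scaled library sizes and TPM the deposited lengths. The study's methods describe results in general as coming from independent experiments but do not say whether these libraries were separate cultures, so p-values measure the spread between these libraries, which may be technical. Alternatives were DESeq2 1.42.0, relative log expression factors, no filter, at least 10 counts in every library, a replicate block, a fit of 6 libraries and leaving out each library.

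The members and lists were chosen with earlier results of these data known. Named are the members, Sin3b, from each list and comparison the 2 most changed genes that passed and averaged 1 CPM or more, and for each member the 2 genes most like it, except an item not reported here; Irf3, Cgas, Tlr8 and Tlr9 were named after their values were seen.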

Additional observations from a re-analysis of the deposited data

Results flagged for a closer look

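The genotype difference of Ikbke was not the same in the 2 experiments: the test of the difference itself, between the untreated cells and the cells without IFNγ, gave -0.52 on the log2 scale (edgeR quasi-likelihood test, adjusted p = 0.0025). It passed under all 15 alternatives, with values from -0.59 to -0.44. Of the list genes named, 5 also differed between the experiments by this test: Dhx15 (-0.14), Tbkbp1 (-0.86), Ikbkg (0.46), Sting1 (-0.35) and Cnpy3 (-0.23). Ikbkg pointed up in untreated cells (0.13, adjusted p = 0.0683) and was lower without IFNγ (-0.34), whereas Sting1 was lower in both experiments. Among all genes tested 13.6% passed this test. The calls of Cnpy3 and Dhx15 were lost under 10 and 6 alternatives, Cnpy3 also by DESeq2 (adjusted p = 0.0834). The experiments come from separate tables, and experiment and batch cannot be told apart. Groups of 2 or 3 libraries are too small to search for single outlying values.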

How the results depend on the processing

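Of 712 values of the members under the alternatives, 680 kept their direction and their side of the threshold, 7 lost the call, 4 gained it and 21 changed sign, all 21 for values that did not pass. The 7 lost calls were those of Tlr3 between genotypes in the IFNγ experiment, given above with the libraries concerned, and the cause was not tested. Of 591 values of Sin3b and the list genes chosen by the naming rule, 542 kept their call and 49 lost it, mainly Ddx60, Tlr4 and Optn between genotypes, Eif2ak1 after IFNγ, and Dhx15 and Cnpy3 between experiments. When only the 6 libraries compared were fitted, 3995 genes passed between genotypes without IFNγ (2567 in the fit of 12) and 1500 with it (2463), where 0 members passed. For the interaction of genotype and IFNγ, 17 genes passed, against 32 with DESeq2, 115 with no filter on low counts and 1 to 33 when a library was left out (33 without sgCtrL with IFNγ replicate 1). The members past the threshold when a library was left out were 1 to 2 between genotypes without IFNγ, 0 to 1 with IFNγ and 1 to 2 between experiments.

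When each library was left out in turn, some log2 values that did not pass in these fits changed sign. The untreated genotype difference ranged from -0.17 to 0.00114 for Ddx58, from -0.28 to 0.37 for Dhx58 and from -0.11 to 0.0391 for Ikbke. With IFNγ it ranged from -0.0310 to 0.0906 for Eif2ak2 and from -0.0319 to 0.0488 for Tbk1. The response of Mavs in Sin3Bsg1 ranged from -0.0210 to 0.0723. The interaction ranged from -0.16 to 0.0525 for Ifih1, from -0.39 to 0.0345 for Dhx58 and from -0.16 to 0.00199 for Tlr3. The difference between experiments ranged from -0.0050 to 0.21 for Ifih1, from -0.53 to 0.12 for Dhx58, from -0.0540 to 0.0936 for Tlr3, from -0.00449 to 0.0792 for Eif2ak2 and from -0.00193 to 0.0939 for Tbk1.

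Replicate numbers are shared between groups. Deviations of same-numbered libraries correlated at -0.12 to 0.23 in the IFNγ experiment, beside -0.24 to 0.17 for different numbers. In the untreated experiment the values were 0.00885 and -0.00885, which 2 libraries per group force to be equal in size. The ranges overlap, and the numbers were not taken to pair the libraries, though a pairing is not excluded. With the replicate block the members that passed were equal in number in all 7 comparisons, Tlr3 was at 0.38, 0.35 and 0.29 between genotypes, Tbk1 with IFNγ was at 0.000458, and 13 genes passed the interaction. Depth limits Dhx58 most, which had 36 to 108 counts per library without IFNγ.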
